A study of Mus musculus with 9 samples.

Results

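The long non-coding RNA genes described here differ widely between progenitors and neurons of the embryonic mouse cortex, and are 10 of the 21210 genes in the deposited table. By GENCODE M21, 9 of them are among its 1725 long non-coding genes, and Snhg11 is typed there as protein-coding. They are RP24-273I13.1, 0610009E02Rik, A530058N18Rik, 2700046A07Rik, A330008L17Rik, A730020E08Rik, A730035I17Rik, Gm14204, 2900079G21Rik and Snhg11. They were picked by symbol from the table because their levels in these same 9 libraries differ so. Their levels and differences are therefore given as a description, with no test. All 10 passed the filter on low values, set at 10 normalised reads or more in 3 or more libraries, which 15828 genes passed.

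The libraries hold poly-A RNA of sorted cells of C57BL/6 embryos, taken from lateral cortex at embryonic day 14.5, with meninges and ganglionic eminences taken away first. Proliferating progenitors were the cells negative for the Btg2 reporter, differentiating progenitors were positive for it, and neurons were positive for the Tubb3 reporter, with 3 libraries in each group. All groups carry the genotype label Btg2GFP/Tubb3GFP, which names green for both reporters, while the sample titles name red for the Btg2 gate. Each library pools cells of several embryos of different litters, so a group is a gate on reporter fluorescence over mixed embryos, and the spread over libraries is that between pools.

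Long non-coding RNAs are transcripts, often spliced and polyadenylated, with no known protein product. Many start close to a protein-coding gene and are read away from it on the opposite strand, and others run antisense through a coding gene. In the embryonic cortex, radial glia divide at the ventricle, give rise to intermediate progenitors, and these produce neurons, and many long non-coding RNAs are known for levels that differ between such cell types. No role of its own is given here for any of these RNAs except Snhg11, whose introns host small nucleolar RNAs.

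Sequences upstream of the starts are shown for 5 of these genes because their starts are what the results below turn on: 3 lie head to head with, or within the start of, a coding gene, 0610009E02Rik lies between 2 coding genes of different behaviour, and Snhg11 stands alone. RefSeq windows of build GRCm38.p6, from 250 bases before to 50 bases after a start, were found for 9 of the 10 genes, and the first listed was used where there were several. They are printed 5′ to 3′ on the strand of the long non-coding RNA, without bases that are part of an exon of a coding gene, with each match to the E-box CANNTG in capitals. The regions are chr2:158610674-158610766 on the minus strand for Gm14204, chr8:99416472-99416723 on the plus strand for A330008L17Rik and chr6:61180761-61181060 on the minus strand for A730020E08Rik. Those of 0610009E02Rik and Snhg11 are chr2:26445674-26445973 and chr2:158375463-158375637, both on the plus strand.
Gm14204: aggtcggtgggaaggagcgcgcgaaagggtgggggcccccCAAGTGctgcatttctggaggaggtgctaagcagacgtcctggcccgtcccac
A330008L17Rik: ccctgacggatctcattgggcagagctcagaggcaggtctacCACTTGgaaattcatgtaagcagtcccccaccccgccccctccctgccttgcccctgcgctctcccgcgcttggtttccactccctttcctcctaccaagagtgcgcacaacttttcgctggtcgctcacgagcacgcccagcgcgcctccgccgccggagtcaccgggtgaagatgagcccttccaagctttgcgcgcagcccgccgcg
A730020E08Rik: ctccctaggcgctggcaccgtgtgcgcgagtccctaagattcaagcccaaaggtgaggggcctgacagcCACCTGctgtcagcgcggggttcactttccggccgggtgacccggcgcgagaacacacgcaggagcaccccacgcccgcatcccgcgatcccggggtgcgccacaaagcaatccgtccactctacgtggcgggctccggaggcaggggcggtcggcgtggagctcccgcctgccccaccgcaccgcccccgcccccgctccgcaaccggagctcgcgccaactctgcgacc
0610009E02Rik: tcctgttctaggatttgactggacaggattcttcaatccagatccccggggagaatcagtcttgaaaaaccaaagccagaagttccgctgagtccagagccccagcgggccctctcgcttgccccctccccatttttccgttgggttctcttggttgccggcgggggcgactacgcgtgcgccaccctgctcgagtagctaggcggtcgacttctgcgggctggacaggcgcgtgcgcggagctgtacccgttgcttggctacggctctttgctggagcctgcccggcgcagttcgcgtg
Snhg11: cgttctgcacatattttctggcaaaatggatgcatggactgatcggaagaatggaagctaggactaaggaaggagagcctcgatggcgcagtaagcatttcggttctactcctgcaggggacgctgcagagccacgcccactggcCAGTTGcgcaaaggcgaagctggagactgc

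The windows were mostly rich in CpG. At least 10 CpG pairs were found in the windows of 8 of the 9 genes, against 43.5% of all 32851 windows in the table, where the median was 7. A730035I17Rik had 43, A530058N18Rik and A730020E08Rik had 35 each, Gm14204 had 28, and 2900079G21Rik had the fewest with 5. The windows of A730035I17Rik, A530058N18Rik and RP24-273I13.1 lie wholly within exons of coding genes, so their CpG counts are those of coding gene sequence as well. The E-box CANNTG, the core bound by proneural bHLH factors among others, was present in 7 of the 9 windows and in 72.3% of all windows. The narrower E-boxes CAGCTG and CAGATG, each also a CANNTG, were in 2 windows each, against 16.3% and 17.2% of all windows. The RBPJ core TGGGAA was in 2 windows (25.6% of all), the TATA box TATAAA in 1, that of 2900079G21Rik (13.6% of all), and the Sox core ACAAT and the octamer ATGCAAAT in 0 (31% and 1.74% of all). Both strands were searched over the whole window, and a match or its absence describes these letters only.

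The levels of 2 genes were highest in proliferating progenitors, of 3 in differentiating progenitors and of 5 in neurons. In 8 of the 10 genes the lowest level was in proliferating progenitors, and in 2 in neurons. The share of the summed group means that fell to the highest group ran between 48% and 97.4%, and it passed 90% in 3 genes, Gm14204, 2900079G21Rik and Snhg11. The description as stage-restricted therefore holds most closely for those 3, while A330008L17Rik was about as high in 2 of the groups. In bulk libraries, fewer cells of a type and less RNA per cell cannot be told apart.

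**Figure D1:**
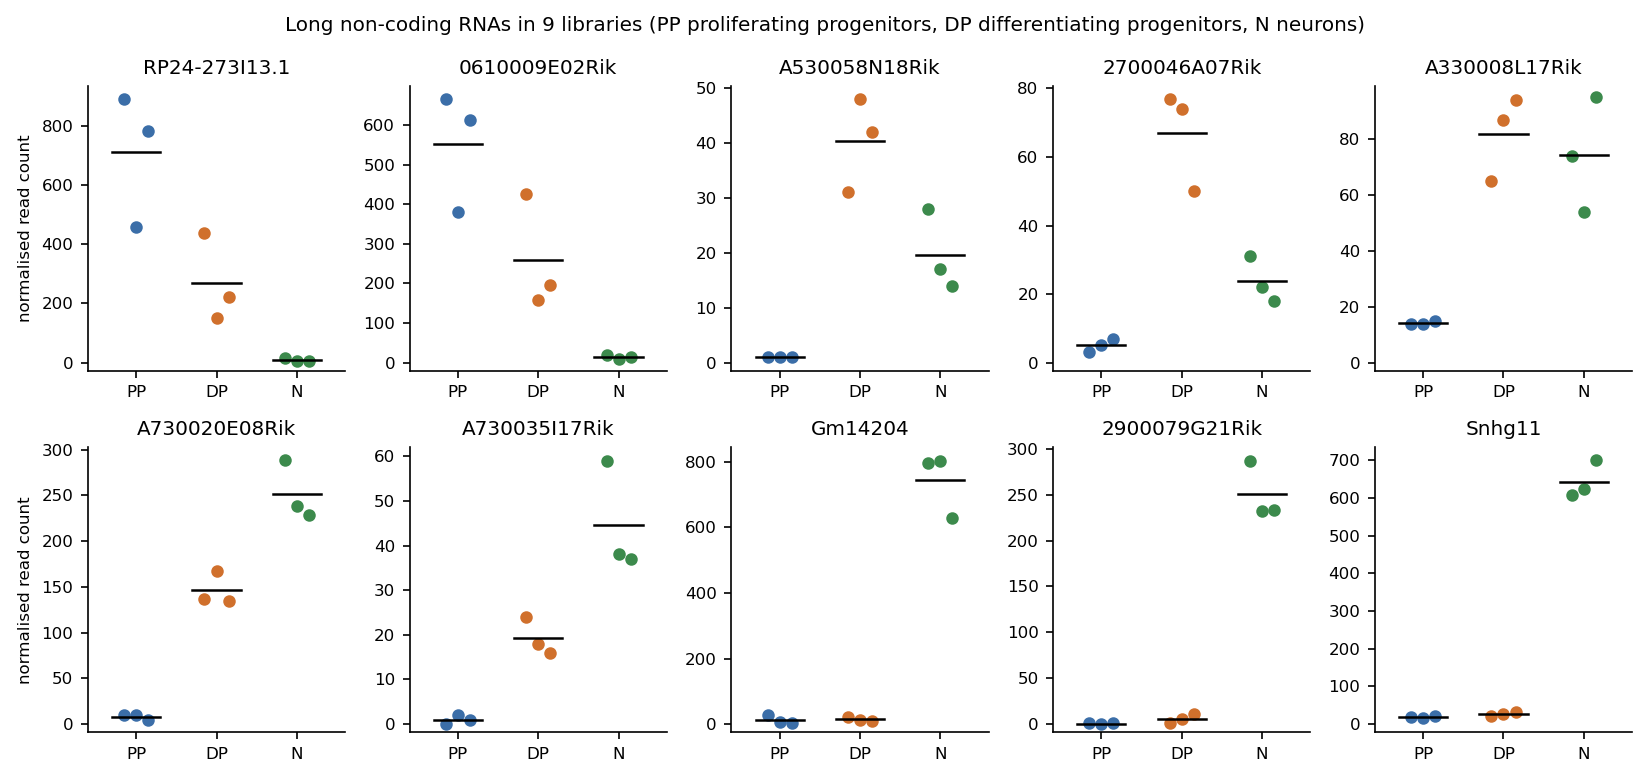
Normalised read count (vertical axis, linear, a separate scale in each panel) of the 10 long non-coding RNAs in each library of proliferating progenitors (PP), differentiating progenitors (DP) and neurons (N). Points are libraries and bars are means of 3. RP24-273I13.1 and 0610009E02Rik stand highest in PP, A530058N18Rik and 2700046A07Rik in DP, and Gm14204, 2900079G21Rik and Snhg11 almost wholly in N.

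Groups that do not overlap, with every library of one above every library of the other, were counted for each pair of populations. Differentiating progenitors were above proliferating progenitors in 5 of the 10 genes and below in 1, where 18.9% and 18.8% of all genes tested were. Neurons were above differentiating progenitors in 5 and below in 4, where 31.2% and 29.5% of all genes were. Neurons were above proliferating progenitors in 8 and below in 2, where 34.1% and 33.5% of all genes were. Since the genes were chosen for such differences, nothing is read from these counts. The median log2 difference over the 10 genes was 2.11 for differentiating minus proliferating progenitors, 0.31 for neurons minus differentiating progenitors and 3.97 for neurons minus proliferating progenitors, against -0.017, -0.011 and -0.020 over all genes tested.

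RP24-273I13.1, on chromosome 14 and listed as Gm4675 in GENCODE M21, was a progenitor transcript. Its normalised read counts were 890, 458 and 781 in proliferating progenitors, 439, 150 and 221 in differentiating progenitors, with 14, 6 and 5 in neurons. The 3 groups did not overlap, although replicate 1 of the differentiating progenitors came close to replicate 2 of the proliferating ones. The mean was 710 ± 225 in proliferating progenitors, 270 ± 151 in differentiating progenitors and 8.33 ± 4.93 in neurons (SD, n = 3 each). Neurons stood 85.2-fold below proliferating progenitors and 32.4-fold below differentiating progenitors. Without replicate 1 of the neurons these folds were 129 and 49.1. The annotation also places the microRNA gene Mir6241 within it on the same strand, and Mir6241 was not analysed here.

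0610009E02Rik, on chromosome 2, had a closely similar profile. It stood at 666, 381 and 612 in proliferating progenitors, 425, 159 and 195 in differentiating progenitors, with 19, 10 and 14 in neurons. The progenitor groups overlapped, since replicate 1 of the differentiating progenitors was above replicate 2 of the proliferating ones, and all neuron libraries were below all others. Within libraries of equal number, differentiating progenitors were below proliferating ones in 3 of 3 pairs. The group means were 553 ± 151, 260 ± 144 and 14.3 ± 4.51 in that order of stages, 38.6-fold lower in neurons than in proliferating progenitors.

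In both RNAs, replicate 1 of the differentiating progenitors was the high library and replicate 2 of the proliferating progenitors the low one. The summed level of the 8 radial glia markers, Sox2, Pax6, Hes1, Hes5, Slc1a3, Fabp7, Nes and Vim, was likewise 69360 in replicate 1 of the differentiating progenitors, against 47491 and 46275 in replicates 2 and 3. It was 5732 to 7096 in neurons and 122277, 118763 and 104199 in proliferating progenitors, where replicate 2 was not the lowest, with no marker at 0 in any library. The part of radial glia left in the differentiating gate in these values was not tested. Red blood cell genes also moved with the proliferating progenitors: 7 of 9 listed genes were in the table, with sums of 102528 to 255620 there, 212 to 2042 in differentiating progenitors and 198 to 275 in neurons, and their part was not tested either.

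A530058N18Rik, on chromosome 2, was highest in differentiating progenitors. Its values were 1, 1 and 1 in proliferating progenitors, 31, 48 and 42 in differentiating progenitors, with 28, 17 and 14 in neurons. The 3 groups did not overlap, and all proliferating libraries were at the level of a single normalised read, so no ratio to them is given. Neurons averaged 19.7 ± 7.37 and differentiating progenitors 40.3 ± 8.62, a 2.05-fold lower level in neurons.

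2700046A07Rik, on chromosome 18, had the clearest peak in differentiating progenitors of the 10 genes, with 70% of its summed means there. It was at 3, 5 and 7 in proliferating progenitors, 77, 74 and 50 in differentiating progenitors, with 31, 22 and 18 in neurons, with no overlap between any 2 groups. The means were 5 ± 2, 67 ± 14.8 and 23.7 ± 6.66. Differentiating progenitors stood 13.4-fold above proliferating progenitors, and neurons 2.83-fold below differentiating progenitors.

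A330008L17Rik, on chromosome 8, was low in proliferating progenitors and similar in the other groups. Its counts were 14, 14 and 15 in proliferating progenitors, 65, 87 and 94 in differentiating progenitors, with 74, 54 and 95 in neurons. Neurons and differentiating progenitors overlapped, with means of 74.3 ± 20.5 and 82 ± 15.1, and both were above every proliferating library. Differentiating progenitors were 5.72-fold and neurons 5.19-fold above the proliferating mean of 14.3 ± 0.577. Their log2 difference, neurons minus differentiating progenitors, was -0.16 ± 0.28 (SE).

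A730020E08Rik, on chromosome 6, was higher at each later stage. It was at 10, 10 and 4 in proliferating progenitors, 137 and 134 in replicates 1 and 3 of differentiating progenitors and higher still in replicate 2, with 288, 238 and 229 in neurons, and no groups overlapped. The means were 8 ± 3.46, 146 ± 18.2 and 252 ± 31.8, so that differentiating progenitors stood 18.2-fold above proliferating progenitors and neurons 1.72-fold above differentiating progenitors. Of its summed means, 62% fell to neurons.

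A730035I17Rik, on chromosome 5, followed the same order at lower counts. It was at 0, 2 and 1 in proliferating progenitors, 24, 18 and 16 in differentiating progenitors, with 59, 38 and 37 in neurons. No groups overlapped, and neurons averaged 44.7 ± 12.4, 2.31-fold above the 19.3 ± 4.16 of differentiating progenitors. With 0 to 2 normalised reads in the proliferating libraries, no ratio to that group is given.

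Gm14204, on chromosome 2, was a neuronal transcript with 96.5% of its summed means in neurons. It stood at 29, 5 and 3 in proliferating progenitors, 21, 13 and 10 in differentiating progenitors, with 798, 804 and 630 in neurons. Both progenitor groups overlapped widely, with means of 14.7 ± 5.69 in differentiating and 12.3 ± 14.5 in proliferating progenitors. Neurons averaged 744 ± 98.8, 50.7-fold above differentiating and 60.3-fold above proliferating progenitors. Replicate 1 was the highest library of both progenitor groups. Without replicate 1 of the proliferating progenitors their mean was 4, and neurons stood 186-fold above it.

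2900079G21Rik, on chromosome 9, had the largest share in 1 group of the 10 genes, 97.4% in neurons. Its counts were 1, 0 and 1 in proliferating progenitors, 1, 6 and 11 in differentiating progenitors, with 287, 232 and 233 in neurons. The progenitor groups overlapped at these low values, and neurons, at 251 ± 31.5, were 41.8-fold above the 6 ± 5 of differentiating progenitors. Without replicate 3 of the differentiating progenitors that fold was 71.6.

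Snhg11, on chromosome 2, was likewise high in neurons. It was at 18, 15 and 21 in proliferating progenitors, 21, 26 and 33 in differentiating progenitors, with 609, 623 and 700 in neurons. The progenitor groups met at 21, although libraries of equal number were higher in differentiating than in proliferating progenitors in 3 of 3 pairs. Neurons, at 644 ± 49, stood 24.1-fold above differentiating and 35.8-fold above proliferating progenitors. RefSeq lists Snhg11 as a long non-coding RNA. It carries the small nucleolar RNA genes Gm25187 and Gm25129, which were not analysed here.

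Levels of different genes were compared per kilobase of the deposited gene length. In proliferating progenitors, 0610009E02Rik and RP24-273I13.1 reached 307 and 231 normalised reads per kilobase, and the other 8 genes lay between 0.0992 and 4.3. In differentiating progenitors the highest was again 0610009E02Rik with 144, followed by RP24-273I13.1 with 88 and A730020E08Rik with 78.5. In neurons A730020E08Rik was highest with 135, then Gm14204 with 101, Snhg11 with 75.6 and A730035I17Rik with 65.3. A530058N18Rik had the longest deposited gene length of these genes, 8630 bases. It was low even at its peak, with 4.67 per kilobase in differentiating progenitors.

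**Figure D2:**
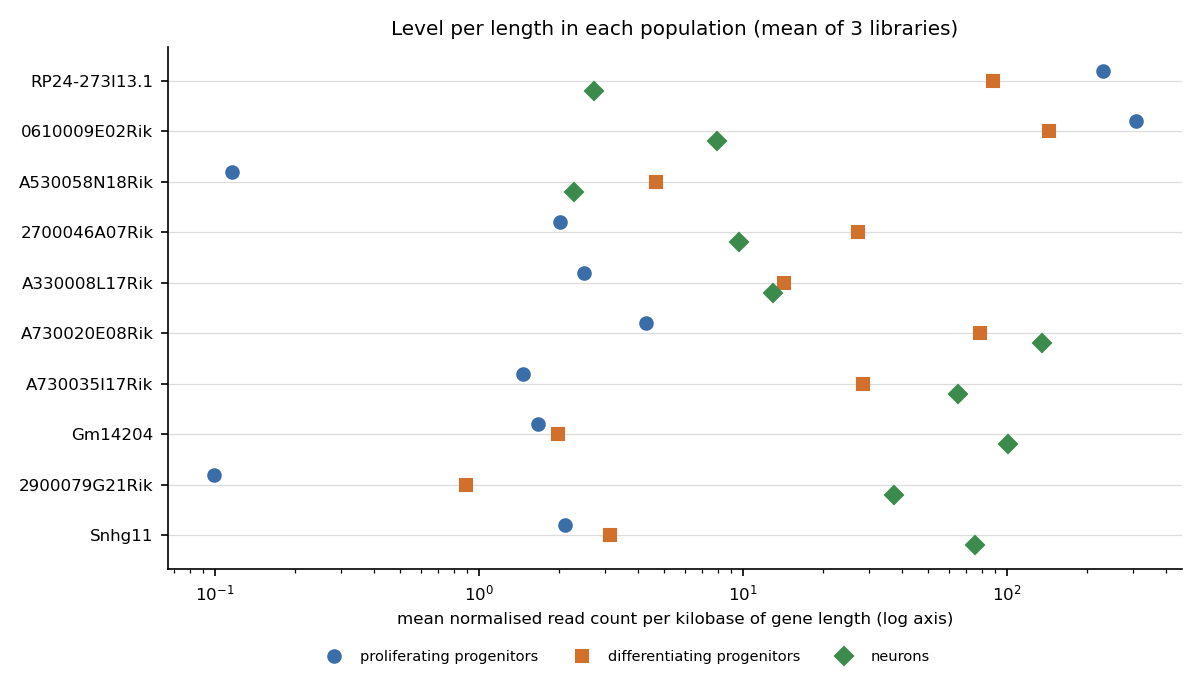
Mean normalised read count per kilobase of gene length (horizontal log axis, mean of 3 libraries) for each long non-coding RNA in proliferating progenitors (circles), differentiating progenitors (squares) and neurons (diamonds). The proliferating group is the rightmost for RP24-273I13.1 and 0610009E02Rik, at 231 and 307, and the leftmost for the other 8 genes, at 0.0992 to 4.3.

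Coding genes beside these RNAs were then tested, since the RNAs were chosen by their own values. Where an RNA overlaps a coding gene, reads may be shared, so tests of those coding genes are not shown to be independent of the choice. GENCODE M21 (build GRCm38) gives 26 coding genes that overlap the 10 RNAs or come next on either side, of which 24 are rows of the table and 20 passed the filter. A coding gene starts within 10000 bases of the start of 7 of the RNAs, and 6 RNAs overlap a coding gene on the opposite strand. Of the 10 genes, 3 lie head to head with a coding gene without overlap: Gm14204 starts 44 bases from Slc32a1, A330008L17Rik 171 bases from Cdh8 and 0610009E02Rik 480 bases from Sec16a. The starts of A530058N18Rik and Gjd2 lie 17 bases apart and overlap, as do those of A730020E08Rik and Ccser1 (486 bases), RP24-273I13.1 and Sox21 (798 bases) and 2900079G21Rik and Arpp21 (1661 bases). A730035I17Rik lies antisense inside Prdm8, 18786 bases from its start, and the 3′ ends of 0610009E02Rik and Notch1 overlap, with 70967 bases between the starts.

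**Figure D3:**
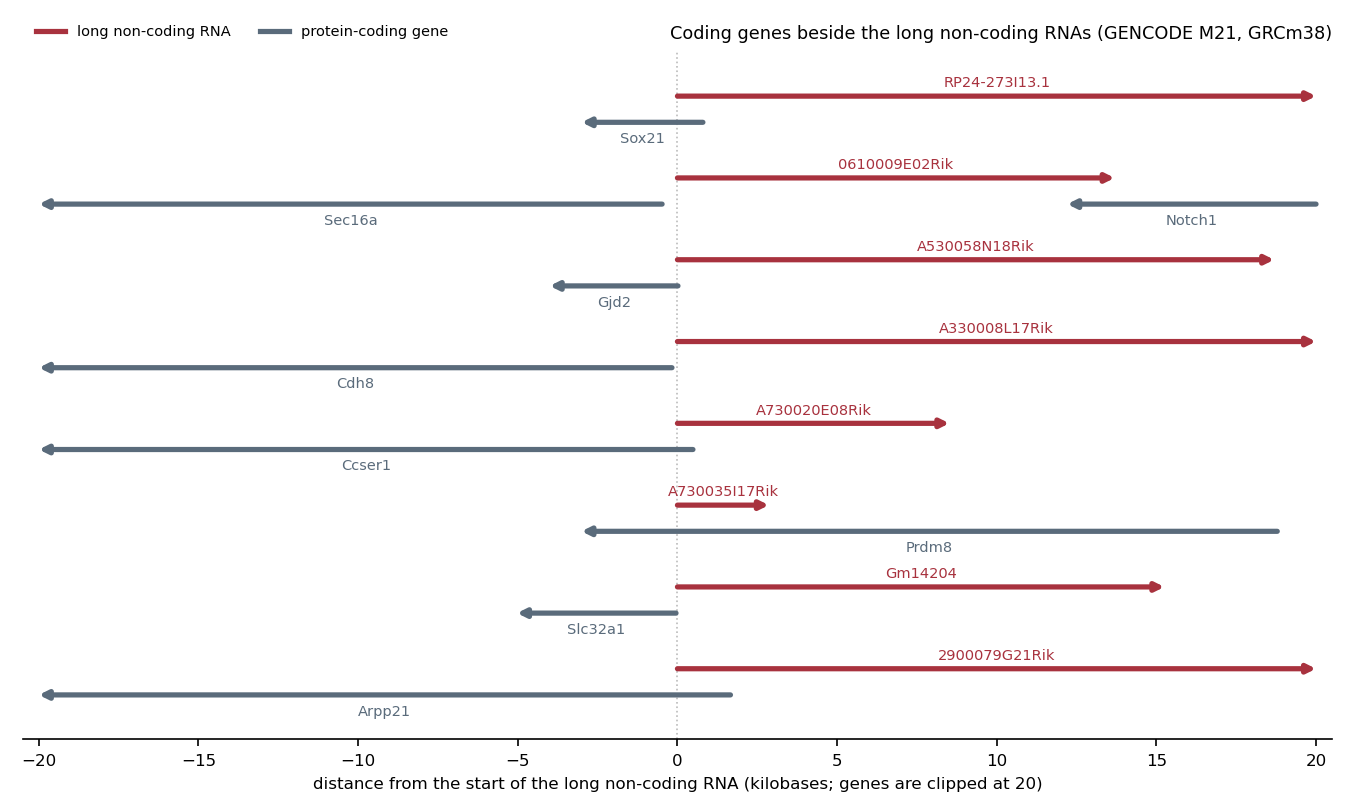
Position of coding genes (grey) beside 8 of the long non-coding RNAs (red) in GENCODE M21, drawn so that each RNA reads to the right from 0. The horizontal axis is the distance from the start of the RNA in kilobases, arrows show the direction of reading, and genes are clipped at 20 kilobases. Every coding gene shown lies on the opposite strand to the RNA.

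The libraries are labelled as strand-specific, but no source used here gives the strand setting of the counting. For the 6 overlapping pairs, reads of the 2 strands can therefore not be told apart with certainty. Of the 20 coding genes tested, 8 rose and 2 fell in differentiating against proliferating progenitors (limma, adjusted p under 0.05), where 13.8% and 11.1% of all genes did. In neurons against differentiating progenitors 8 rose and 6 fell, where 27.6% and 26.4% of all genes did. In neurons against proliferating progenitors 11 rose and 8 fell, where 32.2% and 31.1% of all genes did. Among the 9 tested genes within 10000 bases, 6 rose and 0 fell in differentiating against proliferating progenitors (limma, 2 fell at an unadjusted p under 0.05), and 7 rose and 2 fell in neurons against proliferating progenitors. Scaling every library to the same total moves the median log2 change of all genes by -0.072 in differentiating minus proliferating progenitors, by -0.21 in neurons minus differentiating progenitors and by -0.28 in neurons minus proliferating progenitors, and the changes given here are without it.

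Slc32a1, the vesicular transporter that loads GABA and glycine into synaptic vesicles, was the gene most like its partner. It stood at 28, 7 and 2 in proliferating progenitors, 27, 11 and 6 in differentiating progenitors, with 864, 665 and 554 in neurons. Every neuron library was above every progenitor library, and replicate 1 was again the highest progenitor library of both groups, as for Gm14204. Slc32a1 rose in neurons by 5.68 ± 0.77 on the log2 scale against differentiating progenitors (SE, adjusted p = 0.000205, limma) and did not pass the test between the progenitor groups (0.59 ± 0.77, adjusted p = 0.673). The level of Gm14204 divided by that of Slc32a1, from group sums, was 1 in proliferating progenitors, 1 in differentiating progenitors and 1.07 in neurons.

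Interneuron markers summed were also highest in neurons. Unlike this pair, their sum was higher in differentiating than in proliferating progenitors at each replicate number. The summed level of Dlx1, Dlx2, Dlx5, Gad1, Gad2 and Lhx6 was 976, 245 and 85 in proliferating progenitors, 2900, 1408 and 442 in differentiating progenitors, with 8017, 6934 and 7014 in neurons. Replicate 1 had the highest sum in all 3 groups, as it did for Dlx1, Dlx2, Dlx5 and Gad2 singly. Dlx1 and Dlx2 overlapped between differentiating progenitors and neurons. Dlx1 was at 1568, 793 and 234 in differentiating progenitors, with 1921, 1383 and 1305 in neurons. Gad1 and Lhx6 were low in both progenitor groups, as the pair was, but were lowest in replicate 1 of the differentiating progenitors and of the neurons. Gad1 was at 25, 9 and 4 in proliferating progenitors, 11, 19 and 14 in differentiating progenitors, with 1225, 1407 and 1473 in neurons. None of the 6 genes was at 0 in any library. The ganglionic eminences, where cortical interneurons arise, were removed before the sort, and the part of interneurons in the levels of Gm14204 and Slc32a1 was not tested.

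Gjd2, a gap junction protein of neurons, was at 10, 5 and 3 in proliferating progenitors, 137, 178 and 129 in differentiating progenitors, with 103, 106 and 123 in neurons. Differentiating progenitors and neurons were both above every proliferating library. Gjd2 rose by 4.52 ± 0.35 on the log2 scale in differentiating against proliferating progenitors (adjusted p = 4.6e-05, limma). Between neurons and differentiating progenitors its log2 change was -0.41 ± 0.35 (adjusted p = 0.362, limma). The log2 difference of A530058N18Rik was -1.04 ± 0.34 there (SE from those groups alone, without limma). A530058N18Rik stood at 0.178 of the level of Gjd2 in neurons and 0.273 in differentiating progenitors.

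Cdh8, a classical cadherin of neuronal cell adhesion, was at 274 and 136 in replicates 1 and 3 of proliferating progenitors (mean of 3, 192 ± 72.4), 770, 1246 and 847 in differentiating progenitors, with 1297, 1019 and 1048 in neurons. As for A330008L17Rik, both later groups were above every proliferating library and overlapped each other. Cdh8 rose by 2.34 ± 0.27 on the log2 scale in differentiating against proliferating progenitors (adjusted p = 0.000322, limma) and did not pass the test in neurons against differentiating progenitors (0.26 ± 0.27, adjusted p = 0.461). The ratio of A330008L17Rik to Cdh8 was 0.0745, 0.0859 and 0.0663 over the 3 stages.

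Ccser1, listed as Fam190a in the table and coding for a coiled-coil protein, was at 54, 32 and 36 in proliferating progenitors, 379, 647 and 594 in differentiating progenitors, with 2645, 2471 and 2877 in neurons. It rose at each step, by 3.70 ± 0.24 (adjusted p = 2.43e-05, limma) in differentiating against proliferating progenitors and by 2.34 ± 0.24 (adjusted p = 3.16e-05, limma) in neurons against differentiating progenitors, on the log2 scale. The log2 differences of A730020E08Rik were 4.11 ± 0.39 and 0.78 ± 0.14 for the same steps. A730020E08Rik stood at 0.197, 0.27 and 0.0945 of the level of Ccser1 over the 3 stages.

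Prdm8, a PR-domain protein with a known part in the formation of axon tracts in mice, was at 107, 50 and 32 in proliferating progenitors, 807, 1080 and 891 in differentiating progenitors, with 5764, 5092 and 4512 in neurons. It rose by 4.02 ± 0.36 (adjusted p = 9.3e-05, limma) and then by 2.47 ± 0.36 (adjusted p = 0.000316, limma) on the log2 scale at the same steps. A730035I17Rik, antisense within it, had log2 differences of 3.46 ± 0.49 and 1.15 ± 0.27. Since A730035I17Rik was at 0, 2 and 1 in proliferating progenitors, its first difference depends on the 1 added before logs. Its level was 0.00872 of that of Prdm8 in neurons and 0.0209 in differentiating progenitors.

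Arpp21, a phosphoprotein of neurons regulated by cyclic AMP, was at 24, 6 and 4 in proliferating progenitors, 31, 52 and 57 in differentiating progenitors, with 1631, 1799 and 1827 in neurons. The 3 groups did not overlap. Arpp21 rose by 5.25 ± 0.53 on the log2 scale in neurons against differentiating progenitors (adjusted p = 2.73e-05, limma). Its rise of 2.27 ± 0.53 in differentiating against proliferating progenitors (adjusted p = 0.0128, limma) was lost without replicate 2 of the proliferating progenitors (adjusted p = 0.0516) and without replicate 2 (adjusted p = 0.0507) or 3 (adjusted p = 0.0517) of the differentiating progenitors, with adjusted p between 4.6e-05 and 0.0517 over all alternatives. 2900079G21Rik stood at 0.143 of the level of Arpp21 in neurons and 0.129 in differentiating progenitors, or 0.0843 there without replicate 3. In proliferating progenitors the 3 RNAs antisense to Gjd2, Prdm8 and Arpp21 had too few reads for a ratio.

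Sox21, a Sox transcription factor of neural progenitors, was at 5591, 4274 and 4780 in proliferating progenitors, 2977, 1599 and 1768 in differentiating progenitors, with 86, 30 and 21 in neurons. The 3 groups did not overlap, and replicate 1 was the highest in each. Sox21 fell by 5.71 ± 0.45 on the log2 scale in neurons against differentiating progenitors (adjusted p = 5.86e-06, limma). Its change between the progenitor groups, -1.25 ± 0.45, did not pass the test (adjusted p = 0.0765, limma) and passed with the replicate number as a block (adjusted p = 0.00286) and without replicate 1 of the neurons, with adjusted p between 0.000571 and 0.221 over the alternatives. RP24-273I13.1 stood at 0.145, 0.128 and 0.182 of the level of Sox21 over the 3 stages.

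Notch1, the receptor that holds radial glia in the progenitor state, overlaps the 3′ end of 0610009E02Rik. It was at 26211, 30229 and 28055 in proliferating progenitors, 21092, 17387 and 16551 in differentiating progenitors, with 674, 374 and 308 in neurons. Notch1 fell by 5.41 ± 0.25 on the log2 scale in neurons against differentiating progenitors (adjusted p = 2.37e-07, limma). Between the progenitor groups the change of -0.62 ± 0.25 did not pass (adjusted p = 0.105, limma) and passed with the block (adjusted p = 0.0201) and without replicate 1 of the neurons, with adjusted p between 0.00101 and 0.255 over the alternatives.

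Sec16a, which organises the exit sites of the endoplasmic reticulum, starts head to head with 0610009E02Rik and had an almost level profile. It was at 3989, 3822 and 3812 in proliferating progenitors, 4962, 5014 and 4889 in differentiating progenitors, with 4644, 4302 and 4376 in neurons. Differentiating progenitors were above all other libraries, by 0.36 ± 0.066 on the log2 scale against proliferating progenitors (adjusted p = 0.00429, limma). In neurons against proliferating progenitors the change was 0.20 ± 0.066 (adjusted p = 0.0268, limma), and it turned to -0.092 with all libraries scaled to the same total and to -0.13 after quantile normalisation. That call was also lost without replicate 2 or 3 of the proliferating progenitors and without replicate 1 or 3 of the neurons. In neurons against differentiating progenitors Sec16a changed by -0.16 ± 0.066 (adjusted p = 0.0698, limma, and 0.00817 with the replicate block, with a range of 0.00133 to 0.201 over the alternatives). 0610009E02Rik stood at 0.143 of the level of Sec16a in proliferating progenitors, at 0.0524 in differentiating progenitors and at 0.00323 in neurons.

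**Figure D4:**
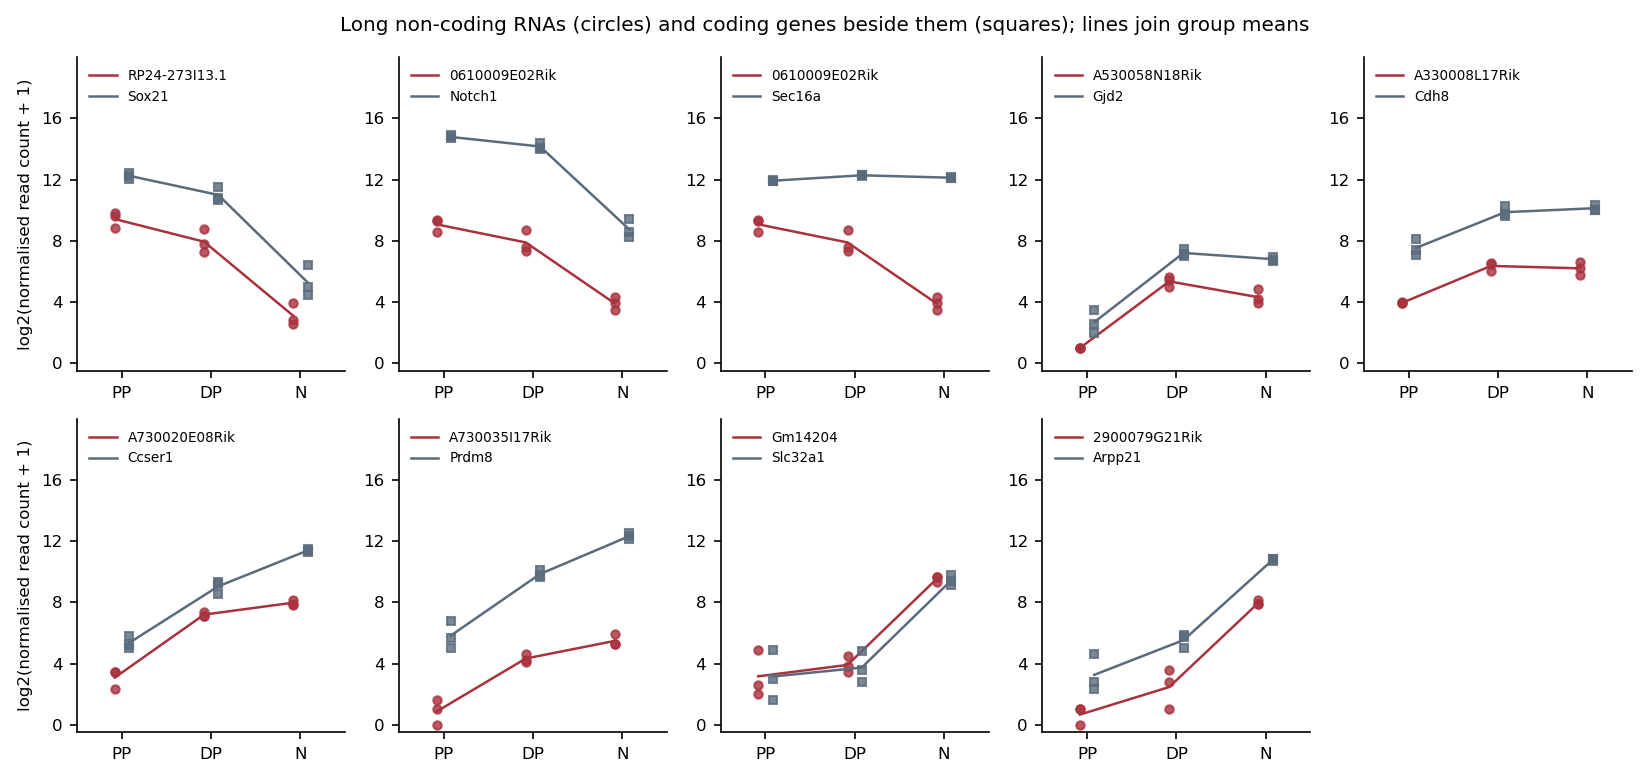
Level on the log2(normalised read count + 1) scale (vertical axis) of 8 long non-coding RNAs (red circles) and the coding genes beside them (grey squares) in each library of proliferating progenitors (PP), differentiating progenitors (DP) and neurons (N), with lines through group means. Gm14204 and Slc32a1 lie on each other, at means of 744 and 694 in neurons, while 0610009E02Rik and Sec16a part.

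The remaining 11 coding genes tested lie farther away, and by the measure of likeness given below their places ran between 68, for Apcdd1, and 14202, for Arhgap11a. Apcdd1, an inhibitor of Wnt signalling 165884 bases from 2700046A07Rik, was at 425, 467 and 434 in proliferating progenitors, 3043, 2849 and 2908 in differentiating progenitors, with 4859, 3172 and 3342 in neurons. It was high in both later groups, where 2700046A07Rik was lower in neurons than in differentiating progenitors. Stac, the next gene on one side of 2900079G21Rik, fell by 4.13 ± 0.44 on the log2 scale in differentiating against proliferating progenitors (adjusted p = 0.000219, limma). Like that RNA, it then rose in neurons against differentiating progenitors, by 2.29 ± 0.44 (adjusted p = 0.00173, limma). Fgf5, 68200 bases from A730035I17Rik, came at place 304 for that RNA, where the overlapping Prdm8 came at 437. With each gene also scaled to the same SD the places were 1117 and 322. Fgf5 was at 0, 1 and 0 in proliferating progenitors, 1, 5 and 2 in differentiating progenitors, with 21, 10 and 10 in neurons. Cdh11, the cadherin gene on the other side of A330008L17Rik, rose by 2.62 ± 0.17 in neurons against differentiating progenitors (adjusted p = 1.72e-06, limma), at a step where the groups overlapped for that RNA. Ralgapb, the next gene downstream of Snhg11, rose by 0.44 ± 0.072 at the same step (adjusted p = 0.000665, limma). The 2 coding neighbours that fell in differentiating against proliferating progenitors were Stac and Gpr180. That count became 4, with Sox21 and Notch1, under the replicate block, where 22% of all genes fell, and without replicate 1 of the neurons.

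The genes with profiles closest to each RNA were found by the root-mean-square distance of centred log2(value + 1) over the 9 libraries, among 15818 genes that passed the filter. A distance of 0 would be an identical profile. Genes named below only for their closeness were picked from these same values, so their likeness to the RNA follows from that choice. Slc32a1 was the closest of all to Gm14204, at 0.33. By the same measure Gjd2 came at place 13 for A530058N18Rik, Sox21 at place 13 for RP24-273I13.1, Arpp21 at place 22 for 2900079G21Rik and Cdh8 at place 47 for A330008L17Rik. Ccser1 was at place 98 for A730020E08Rik, Notch1 at 359 and Sec16a at 8180 for 0610009E02Rik, and Prdm8 at 437 for A730035I17Rik. With each gene also scaled to the same SD, the places were 3 for Slc32a1, 28 for Sox21, 76 for Gjd2, 293 for Arpp21 and 156 for Cdh8, and 266 for Ccser1, 546 for Notch1, 9000 for Sec16a and 322 for Prdm8.

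For the RNAs high in proliferating progenitors, the 3 closest genes were Six5, Agtrap and Prrx2 for RP24-273I13.1, at 0.34 to 0.35, and AC119214.1, Sox13 and Nes for 0610009E02Rik, at 0.20 to 0.29. Six5 and Prrx2 code for homeobox factors, and Nes for nestin, the intermediate filament of radial glia. Nes was at 34854, 24762 and 24703 in proliferating progenitors, 21558, 8954 and 10564 in differentiating progenitors, with 1285, 968 and 858 in neurons. Its replicate 1 was the highest of the differentiating group, as for 0610009E02Rik.

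For the RNAs high in differentiating progenitors, the closest genes were Wnt5a, Prmt8 and Synpr for A530058N18Rik, at 0.40 to 0.43, Ebf2, Optc and Ripply3 for 2700046A07Rik, at 0.35 to 0.43, and Serinc5 and Nkd1 for A330008L17Rik, at 0.23 and 0.24. Nkd1 is an inhibitor of Wnt signalling and Wnt5a a Wnt ligand. Ebf2, a transcription factor, was at 7, 7 and 11 in proliferating progenitors, 164, 118 and 145 in differentiating progenitors, with 60, 46 and 52 in neurons. Like 2700046A07Rik, which it was picked to resemble, it had no overlap between groups and a peak in the differentiating libraries. Ebf2 is also on the list of Cajal-Retzius markers summed below.

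For the RNAs high in neurons, the closest genes were Kif21b, Chga and Plcb1 for A730020E08Rik, at 0.25 to 0.27, Tmem90a, Rspo3 and Pappa2 for A730035I17Rik, at 0.30 to 0.45, and Slc32a1, Ablim3 and Erbb4 for Gm14204, at 0.33 to 0.53. Those of 2900079G21Rik were the antisense gene Gm15857, Camk2b and Cdh13, at 0.58 to 0.62, and those of Snhg11 were Agap2, Jph3 and Arhgap20, at 0.18 to 0.22. Kif21b is a kinesin motor, Erbb4 a neuregulin receptor and Camk2b a calcium-dependent kinase subunit. Agap2 was at 134, 121 and 154 in proliferating progenitors, 132 to 190 in differentiating progenitors, with 4532, 5326 and 5215 in neurons, a profile nearly parallel to that of Snhg11. With each gene also scaled to the same SD, 2 of the 3 closest genes stayed for 2700046A07Rik and for A730035I17Rik, 1 for Gm14204, and 0 for A530058N18Rik, A730020E08Rik, 2900079G21Rik, RP24-273I13.1, 0610009E02Rik and Snhg11.

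Other hosts of small nucleolar RNAs did not have the profile of Snhg11. Of 18 listed, 8 were in the table and 7 were tested. In each of the 3 comparisons 0 rose (limma, also 0 at an unadjusted p under 0.05) and 2 fell, Snhg3 and Snhg20, which the table lists as 2810008D09Rik. Of the long non-coding genes tested, 8.92% rose and 10.1% fell in differentiating against proliferating progenitors, 16.6% and 27.4% in neurons against differentiating progenitors, and 22.4% and 38.7% in neurons against proliferating progenitors. Snhg3 was at 172, 149 and 177 in proliferating progenitors, 130, 96 and 89 in differentiating progenitors, with 48, 43 and 46 in neurons. It fell by 1.17 ± 0.18 on the log2 scale in neurons against differentiating progenitors (adjusted p = 0.000537, limma), the step at which the log2 difference of Snhg11 was 4.56 ± 0.19. With the replicate block, 4, 4 and 5 of the 7 fell in differentiating against proliferating progenitors, neurons against differentiating progenitors and neurons against proliferating progenitors, where 20.5%, 35.9% and 45.9% of the long non-coding genes tested did. In differentiating against proliferating progenitors, both calls were lost without replicate 1 or 3 of the proliferating progenitors and without replicate 2 or 3 of the differentiating progenitors.

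Among 51 well-known long non-coding RNAs, 31 were in the table and all 31 were tested. In differentiating against proliferating progenitors 8 rose and 5 fell, where 8.92% and 10.1% of the 796 long non-coding genes tested did. In neurons against differentiating progenitors 8 rose and 13 fell, where 16.6% and 27.4% did, and in neurons against proliferating progenitors 9 rose and 8 fell, where 22.4% and 38.7% did. With the replicate block 11, 9 and 12 rose in the same order of comparisons, and no share of the long non-coding genes is given for these counts, so nothing is read from them. Over all genes, 3793 rose in differentiating against proliferating progenitors with the block, against 2186 without it. Known RNAs that fell with the block were 6, 16 and 10 in the same order, where 20.5%, 35.9% and 45.9% of the long non-coding genes tested did. The median log2 change of the list was 0.056, -0.54 and 0.12 for these comparisons, against -0.017, -0.011 and -0.020 over all genes tested. No median was taken over the long non-coding genes alone, of which more fell than rose in each comparison. The 5 that fell between the progenitor groups became 1 to 3 without replicate 1, 2 or 3 of the proliferating progenitors, replicate 2 or 3 of the differentiating progenitors, or replicate 2 or 3 of the neurons.

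Meg3, the maternally expressed RNA of an imprinted cluster, was at 1025, 625 and 936 in proliferating progenitors, 2145, 2086 and 2709 in differentiating progenitors, with 13617, 14410 and 14399 in neurons. It rose by 4.07 ± 0.18 on the log2 scale in neurons against proliferating progenitors (adjusted p = 9.5e-08, limma), where the log2 difference of Snhg11 was 5.09 ± 0.15 and that of 2900079G21Rik 7.30 ± 0.35. H19, another imprinted RNA, was at 1570, 1038 and 919 in proliferating progenitors, 731 and 474 in replicates 1 and 2 of differentiating progenitors, with 89, 43 and 71 in neurons. It fell by 4.12 ± 0.34 in neurons against proliferating progenitors (adjusted p = 5.01e-06, limma), where the log2 differences of RP24-273I13.1 and 0610009E02Rik were -6.32 ± 0.50 and -5.18 ± 0.35. In the same comparison Mir22hg and Lhx1os rose, by 3.70 ± 0.30 and 5.08 ± 0.44, and Mir99ahg, Emx2os, Pvt1 and 2810008D09Rik fell, with log2 changes of -1.73, -1.61, -2.31 and -1.45. All Lhx1os libraries of proliferating progenitors were at 0, so its fitted change depends on the added constant of 1. So does the difference of 2900079G21Rik, which was at 1, 0 and 1 there.

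The labels were checked on the reporter genes. Btg2 was at 14022, 14635 and 19983 in differentiating progenitors, above all other libraries, and Tubb3 at 39932 to 50230 in neurons, above all others. Normalised totals ran between 17531558 and 22076409 reads per library. Of markers of other cell types, 5 of 5 Cajal-Retzius genes summed to 89 to 125 in proliferating progenitors, 1026 to 1298 in differentiating progenitors and 17287 to 20159 in neurons. The 5 meningeal genes summed to 221, 728 and 2947 in proliferating progenitors, and at most 155 in any other library. Among them, Dcn alone was higher in differentiating progenitors (59, 66 and 62) than in proliferating progenitors (17, 27 and 49). Endothelial genes summed to 145 to 421 in proliferating progenitors, 162 to 212 in differentiating progenitors and 27 to 68 in neurons, and microglial genes to 146 to 211 in proliferating progenitors, 79 to 106 in differentiating progenitors and 25 to 35 in neurons. The part of these cells in the levels of the 10 RNAs was not tested.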

How the data were processed

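Poly-A RNA of 9 sorted pools was sequenced in libraries labelled strand-specific. The submitters' processing notes name build mm9 and the tools BWA, DESeq 1.8.1, bedtools 2.11 and CASAVA 1.8.0, without a source that ties a tool to a step. The authors deposited 1 score for each gene and library, in whole-number normalised read counts, with Ensembl version 61 named per the file headers. Rounding after normalisation leaves no raw counts, so no count model was fitted, and the design notes had foreseen limma for that case.

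Values on the log2(value + 1) scale were fitted with limma 3.58.1 (R 4.3.3) and its intensity trend; this scale understates changes of low genes. All 9 libraries entered 1 fit with 6 residual degrees of freedom, p-values were adjusted by Benjamini-Hochberg over 15828 genes, and the threshold was 0.05. The fit was tested on simulated data. GENCODE M21 matched 19890 genes by identifier and 465 by symbol, among them A730020E08Rik, and left 855 unmatched. No coordinates were converted between builds. RefSeq windows came from GRCm38.p6. Python 3.11.15 did the rest.

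The 10 RNAs and all lists were chosen with earlier results of these data known. Genes named are the 10 RNAs, the coding genes next to or overlapping them, the 3 closest genes of each (1 is not reported here), up to 8 called members of each long non-coding list by smallest adjusted p, and Btg2 and Tubb3. Of the 11 farther neighbours, those described with values were picked once the values were known.

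Pairing by replicate number was checked: after removal of group means, the 9 pairs of equal number correlated at 0.507 to 0.767 across genes, and other pairs at -0.64 to 0.428. The numbers were therefore taken to pair the libraries, but the main fit, with its calls and shares, does not use the pairing. In differentiating against proliferating progenitors it called 2186 genes higher and 1758 lower, against 3793 and 3489 with the pairing. A gene said not to pass the test is so in the main fit. A fit with the replicate number as a block (leaving 4 degrees of freedom) is given where it changes the call of a coding neighbour or the counts of a list. Alternatives were other pseudocounts (0.5 and 4), filters (none and 50) and normalisations, no trend, 2 groups only and each library left out. Replicates 2 and 3 alone, and folds of group means without 1 library, were chosen after seeing the data. Statements that groups overlap do not use the pairing.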

Additional observations from a re-analysis of the deposited data

How the results depend on the processing

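Log2 differences of the 10 RNAs were checked in 420 alternatives, and those of at least 1 kept their direction. Smaller differences were not counted for direction. For A330008L17Rik the mean of differentiating progenitors was 1.1-fold that of neurons. Without replicate 2 of the neurons it was 0.97-fold, so this difference turned round. The mean of Gm14204 in differentiating progenitors was 1.19-fold that in proliferating progenitors. This also turned round, to 0.932-fold without replicate 1 of the differentiating progenitors. Without replicate 2 or 3 of the proliferating progenitors it was 0.917-fold or 0.863-fold, and without their replicate 1 it was 3.67-fold. In 16 alternatives the difference moved by more than the spread between libraries, 8 of them with a pseudocount of 4. Of 1644 alternative tests of single genes, 1571 kept call and direction, 46 lost the call, 25 gained it and 2 turned round, the change of Sec16a in neurons against proliferating progenitors (-0.092 with equal totals and -0.13 with quantile normalisation). With the replicate block, 3793 genes rose and 3489 fell in differentiating against proliferating progenitors, against 2186 and 1758 without it, and 2649 fell with replicates 2 and 3 alone. The coding neighbours that fell in that comparison were 4 with quantile normalisation, the block, 2 groups only or replicates 2 and 3 alone, and 0 among genes within 10000 bases. Among these near genes 4 rose and 2 fell in neurons against differentiating progenitors, and 7 rose and 2 fell in neurons against proliferating progenitors. With 2 groups only, 3 known long non-coding RNAs and 1 small nucleolar RNA host fell in differentiating against proliferating progenitors. Under the block, falling hosts numbered 4, 4 and 5 in the 3 comparisons, and 5 in neurons against proliferating progenitors with replicates 2 and 3 alone. For that last count no share over all genes is given, so nothing is read from it. Of the 9 coding genes beside the RNAs, the block changed no call other than those given for Sox21, Notch1 and Sec16a. Of the farther coding genes it added a rise for Arhgap11a (adjusted p = 0.00308, limma) and Ralgapb (adjusted p = 0.00242, limma) in differentiating against proliferating progenitors. In neurons against differentiating progenitors it added a rise for Apcdd1 (adjusted p = 0.0254, limma).

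Leaving out each library in turn, in differentiating against proliferating progenitors, gave 1076 to 1864 genes that fell, 2 to 4 coding neighbours, 1 to 5 known long non-coding RNAs, 0 to 2 hosts, and 1 to 2 of the 10 RNAs at least 2-fold lower. The genes that fell numbered 1114 without replicate 2 of the proliferating progenitors, and 1076 and 1108 without replicates 2 and 3 of the differentiating progenitors. The cause of these shifts was not tested. Values of 0 to 2 normalised reads, as in proliferating progenitors for 3 of the RNAs, limit any ratio there.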
